A study of Mus musculus with 12 samples.

Results

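The genes of the cell division cycle that carry systematic names were followed in RNA-seq libraries of mouse brain and skull. They were taken as every symbol of the count table that names a cyclin of type A, B, D or E (Ccn), a cyclin-dependent kinase (Cdk), a Cdc gene, a minichromosome maintenance gene (Mcm), a centromere protein gene (Cenp), an Aurora, Bub1-type or Polo-like kinase (Aurk, Bub1, Bub1b, Plk) or an E2F factor, together with Top2a and Mki67. This rule used names and no measured value, and it found 97 of 22317 genes. Some of them share the name but not the role, such as Cdc42 and Cdk5, and they are kept apart by role below.

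Wild-type male BALB/c mice aged 8 weeks were injured by photothrombosis (PT), in which the dye Rose Bengal is given into the blood and a laser closes the vessels of a small area. The groups labelled SB2 and SB4 are brain cortex taken 2 and 4 days after the skull had been lit. The groups labelled BS2 and BS6 are interparietal bone, a bone of the skull, taken 2 and 6 days after the brain had been lit. Each group held 3 libraries of poly(A) mRNA. All mice were of 1 genotype and all had been injured, the sampled tissue was the neighbour of the one that was lit, and whole pieces of tissue were taken. Uninjured controls and the lit tissues themselves were not analysed here, so no value is relative to a control.

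The labelled tissue was checked against marker genes before any comparison. The libraries labelled SB2 went against their label. Their 10 neuronal markers summed to 74.6 to 122.8 CPM (counts per 1000000 counts of the library), against 12936 to 13810 CPM in SB4, and their 7 measured osteoblast and osteocyte markers to 36850 to 41969 CPM, against 23.1 to 25.9 CPM in SB4. The libraries labelled BS2 also went against theirs, with 12547 to 12921 CPM of neuronal and 24.2 to 34.5 CPM of osteoblast markers. BS6 held 83.1 to 165 CPM of neuronal and 19217 to 79444 CPM of osteoblast markers. SB2 and BS6 are therefore called bone-rich and SB4 and BS2 brain-rich below, and the libraries are named by their labels. The markers of SB2 were those of the tissue on the BS labels, and the markers of BS2 those of the tissue on the SB labels. Whether these labels were exchanged was not tested, and the groups were kept as labelled. Each change over time was thus also a change between bone-rich and brain-rich libraries, and day and tissue content cannot be told apart. BS6 replicate 2 stood apart within its group. Its 8 measured neutrophil lineage markers summed to 25177 CPM, against 1433 and 3442 CPM in replicates 1 and 3, and its osteoblast markers were the lowest of the group. Calls that were lost without it are named beside the results. Total counts were 14126082 to 18972654 per library, so that 3 counts, the limit a count of 0 allows, corresponded to 0.163 to 0.218 CPM.

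A cell that divides passes from a growth phase (G1) through DNA synthesis (S) and a second gap (G2) to mitosis (M). Cyclins D1 to D3 with Cdk4 and Cdk6 inactivate the retinoblastoma protein and free the E2F factors, which switch on the genes of DNA replication. The Mcm2 to Mcm7 ring is loaded on replication origins by Cdc6 and opened as a helicase with Cdc45. Cyclin B with Cdk1 drives mitosis, in which centromere proteins build the kinetochore, the Aurora, Bub1 and Plk1 kinases control the attachment of chromosomes, and Cdc20 activates the anaphase-promoting complex that ends it. Bone marrow is a site of lasting cell division, whereas neurons of the adult cortex have left the cycle for good.

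**Figure D1:**
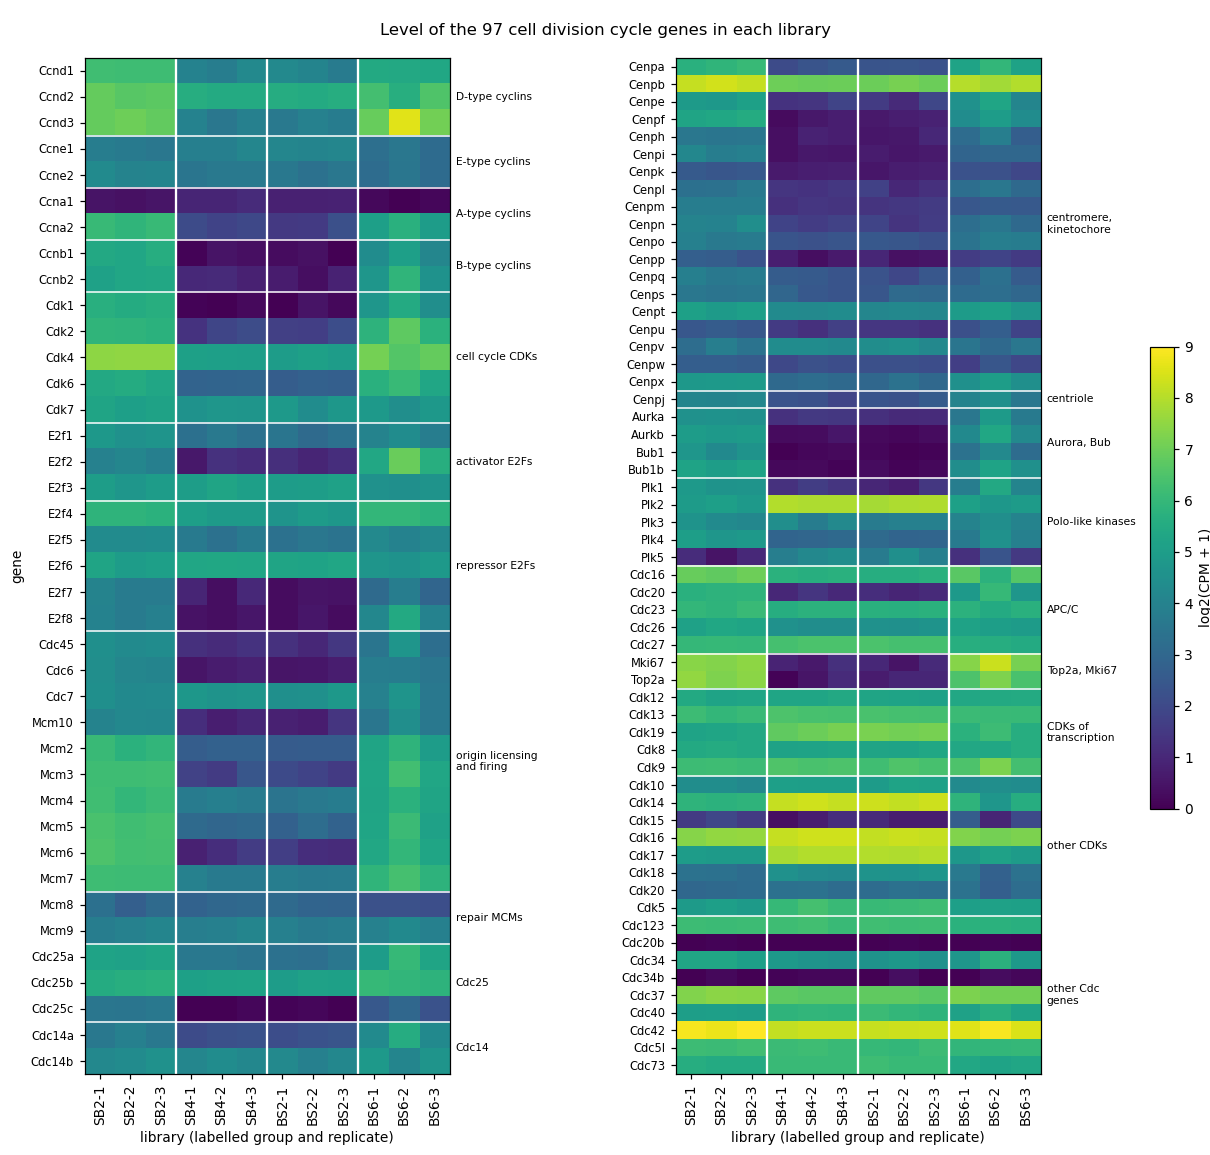
Level of each of the 97 cell division cycle genes in each of the 12 libraries, as log2(CPM + 1) by colour. Rows are genes grouped by role, and columns are libraries by labelled group (SB2 and SB4 labelled as brain, BS2 and BS6 as skull). The dark rows in SB4 and BS2 include genes of mitosis such as Cdk1, Ccnb1 and Bub1b, and Cdc6 of DNA replication, all under 1 CPM there.

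The summed level of the 97 genes was 4590 to 4786 CPM in SB2 and 3602 to 4970 CPM in BS6. In the brain-rich libraries it was 3159 to 3270 CPM in SB4 and 3183 to 3245 CPM in BS2. Cdc42, a GTPase of cell polarity and the actin skeleton, was the most abundant in every group per length, at 158 ± 14.6 CPM per kb of exon (SD, n = 3) in SB2, 101 ± 4.67 in SB4, 106 ± 2.84 in BS2 and 137 ± 22.4 in BS6. Next to it on this scale stood Cenpb and Cdk4 in SB2 (62.7 ± 4.31 and 55.0 ± 1.04 CPM per kb) and Cdk16 and Plk2 in SB4 (72.2 ± 3.52 and 53.7 ± 0.930 CPM per kb). Many members were near the limit of detection in the brain-rich libraries. In SB4, 15 of the 97 genes were under 1 CPM in every library, and in BS2 18 were. In SB2 and in BS6 3 genes were, Ccna1, Cdc20b and Cdc34b in both. Exons of 37 of the 97 genes overlap exons of a gene on the other strand, and since the use of strand in the counting is not given in the sources used here, their reads may include those of that neighbour. The overlap takes 26.7% of the exon length of Cenpu (with Primpol), 23.4% of Ccnd1 (LTO1), 22.5% of Cenpo (Adcy3 and Ptrhd1), 19.7% of Cdk4 (Tspan31), 19.2% of Mcm9 (Asf1a) and 17.4% of Ccne2 (Ints8). It takes 10.1% to 13.4% of Cdc23, Cdc25c, Cenpp, Ccna2, E2f8, Cdc20b and Ccna1, and less of the other genes.

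SB4 was compared with SB2 first. The members lower in SB4 included the Mcm2 to Mcm7 ring, Cdc45, Ccna2, Ccnb2, Cdc20, Aurka and Plk1, and those higher in SB4 included Plk2, Cdk5, Cdk14, Cdk17, Cdk18 and Cdk19, all of which were measured above the filter on low counts in both groups. Calls here and below required a log2 fold change past 1 in either direction and, in edgeR's quasi-likelihood test fitted on all genes, a p under 0.05 after Benjamini-Hochberg adjustment. Of 95 members tested, 54 were lower and 8 higher in SB4, and 33 were not called, of which 24 had an adjusted p under 0.05 with a smaller change. Over all 17293 genes tested, 28.6% were lower and 27.8% higher, against 56.8% and 8.42% of the members. The median log2 fold change was -1.41 over the members and -0.01 over all genes. In 18 of the 95 members the filter on low counts was passed in SB2 alone, and in 2, Ccna1 and Plk5, in SB4 alone, so these had to differ and their calls support nothing. The 18 were Aurkb, Bub1, Bub1b, Ccnb1, Cdc25c, Cdc6, Cdk1, Cdk15, Cenpf, Cenph, Cenpi, Cenpk, Cenpp, E2f2, E2f7, E2f8, Mki67 and Top2a, and for them the test of this comparison is not given below. Of the 75 members that passed in both groups, 36 (48.0%) were lower and 6 (8%) higher in SB4, against 24.9% and 23.4% of the 13700 genes that did so. The libraries did not overlap between the groups in 88 of the 95 members and in 85.5% of all genes tested. In tissue pieces such as these, fewer dividing cells and less RNA of these genes per cell cannot be told apart.

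BS6 against BS2 went the opposite way. Of 95 members tested, 49 were higher and 9 lower in BS6, and 37 were not called by the same test. Over all 17311 genes, 29% were higher and 26.5% lower. The median log2 fold change was 1.26 over the members and 0.02 over all genes. The filter was passed in BS6 alone by 19 of the 95, which were those of SB2 above without E2f2 and with Ccnb2 and Mcm10, and in BS2 alone by Ccna1. Of the 75 that passed in both groups, 30 (40.0%) were higher and 8 (10.7%) lower in BS6, against 25.2% and 22.7% of 13625 genes. Of the 95, 82 did not overlap between the groups, against 80.8% of all genes. Without BS6 replicate 2, 48 were higher and 8 lower, and the median was 1.07. The calls of Cenpu (0.96), Plk4 (0.94) and Cenpv (-0.87) were then lost and that of Cdc16 (1.07) gained.

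The pair of comparisons share no library. Of the 54 members lower in SB4, 48 (88.9%) were higher in BS6, which is 98.0% of the 49 higher there. Over all genes, 4270 were called in this way, 86.3% of those lower in SB4 and 85.1% of those higher in BS6. These counts hold the members whose direction the filter fixed. Among the members that passed in every group, 28 were called in this way, 82.4% of 34 and 96.6% of 29, against 87.1% and 85.6% over all genes that passed in every group, so the shares were near those of all genes. Ccnd2, Cdc16, Cenpb, Cenpq, Cenps and E2f1 were called in the first comparison alone and E2f4 in the second alone. All 8 members higher in SB4, Ccna1 and Plk5 among them, were lower in BS6, where Cenpv was called in addition. Over all genes the 4072 higher in SB4 and lower in BS6 were 84.9% and 88.7% of the genes called. No member was called in the same direction in both. When the difference between the changes was tested over all 12 libraries, 62 members were called above 0 and 15 below 0 by the same rule, against 37.8% and 35.8% of all genes. Of these, 20 and 2 had passed the filter through 1 group alone in either comparison and had to differ. Of the 73 other members 55 (75.3%) were called in either direction, against 68.6% of the 13266 genes that passed in every group. Of these 55 members, 42 were above 0 and 13 below 0, a split that was not computed for those genes.

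**Figure D2:**
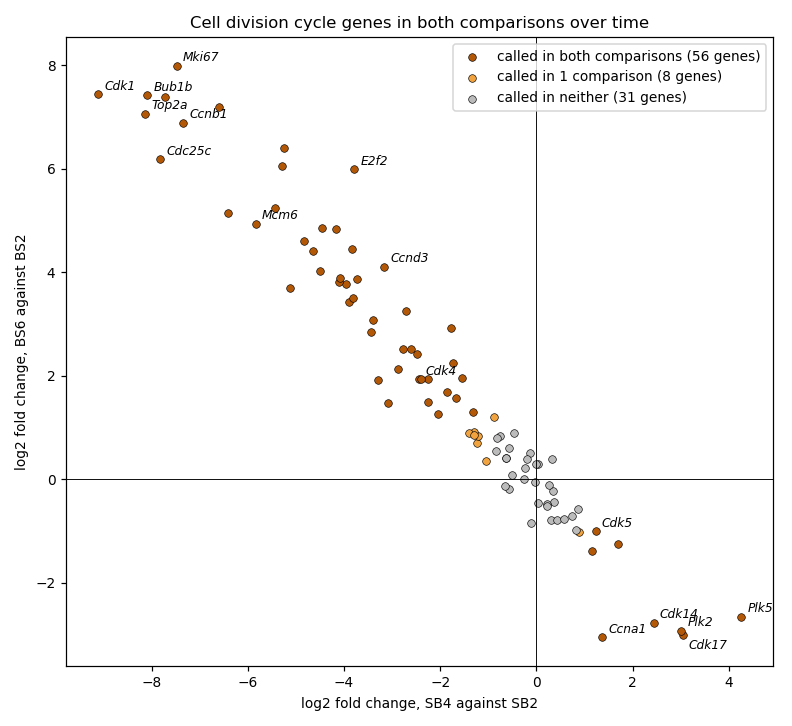
Log2 fold change of the 95 tested cell division cycle genes in SB4 against SB2 (horizontal axis) and in BS6 against BS2 (vertical axis), coloured by the calls. The 48 genes lower in SB4 and higher in BS6 lie at the upper left and the 8 higher in SB4 and lower in BS6 at the lower right.

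The D-type cyclins start the cycle in response to growth factors. Ccnd1 was at 75.1, 72.4 and 72.2 CPM in SB2 and at 15.0, 13.0 and 17.7 CPM in SB4. In BS2 it was at 17.6, 15.5 and 12.5 CPM and in BS6 at 42.8, 41.7 and 39.8 CPM. The bone-rich libraries lay above the brain-rich libraries without overlap, and SB2 lay above BS6. Ccnd1 fell by 2.26 on the log2 scale (SE 0.11) between SB2 and SB4, and it was 1.48 (SE 0.15) in BS6 against BS2. Ccnd3, the D-type cyclin known for its part in lymphoid and erythroid cells (chr17:47505051-47599691, plus strand), was at 117, 128 and 114 CPM in SB2 and at 15.0, 10.8 and 14.3 CPM in SB4. It was at 11.4, 14.4 and 12.6 CPM in BS2 and at 118, 388 and 134 CPM in BS6, so that replicate 2 was far above the other libraries of BS6. It changed by -3.17 (SE 0.12) in SB4 against SB2 and by 4.10 (SE 0.53) in BS6 against BS2, or 3.34 without BS6 replicate 2. Ccnd2 changed the least of the 3, at 108 ± 8.63 CPM in SB2, 45.7 ± 1.73 in SB4, 45.9 ± 1.71 in BS2 and 72.7 ± 21.2 in BS6 (SD, n = 3), and it was called in SB4 against SB2 (-1.24, SE 0.08) and not in BS6 against BS2 (0.70, SE 0.22).

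The mix of D-type cyclins differed between the groups as well. Per kb of exon, Ccnd2 made up 50.7 ± 3.65% of the D-type total in SB4 and 51.1 ± 3.57% in BS2 (SD, n = 3). In SB2 the share of Ccnd2 was 28.2 ± 1.81%, and Ccnd1 and Ccnd3 held 38.2 ± 0.489% and 33.6 ± 2.09%. In BS6 Ccnd3 was the leading cyclin, with 43.7% to 75.8% of the total, and the highest share was that of replicate 2. In the brain-rich libraries the share of Ccnd3 was 13.0% to 17.2%. These shares are descriptions with no test.

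**Figure D3:**
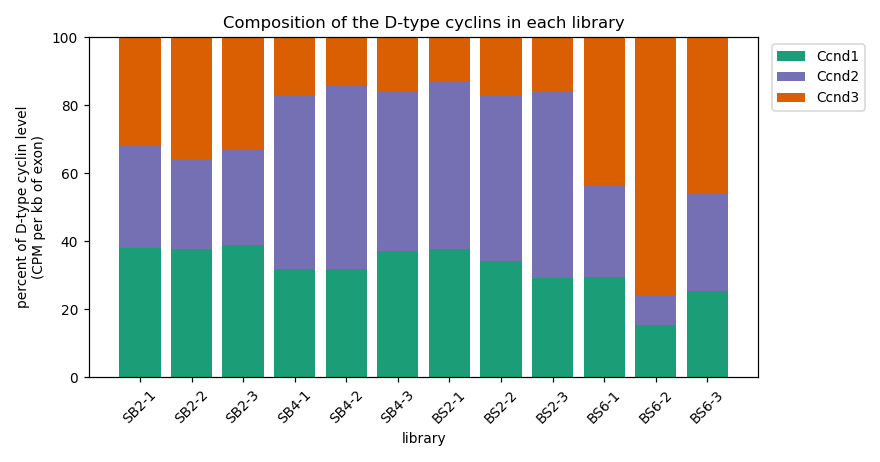
Share of Ccnd1, Ccnd2 and Ccnd3 in the summed level of the D-type cyclins (CPM per kb of exon, in percent) in each library. Ccnd2 is the largest part in the 6 brain-rich libraries (SB4 and BS2), and Ccnd3 the largest in all 3 BS6 libraries, with 75.8% in BS6 replicate 2.

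Their kinase partners were higher in the bone-rich libraries as well. Cdk4 was at 175, 179.5 and 182 CPM in SB2, 33.8, 33.0 and 32.0 CPM in SB4, 30.1, 34.1 and 30.7 CPM in BS2 and 139, 96.2 and 116 CPM in BS6. It was 5.41-fold lower in SB4 than in SB2 and 3.80-fold higher in BS6 than in BS2, and in neither pair did the libraries overlap. BS6 replicate 2 was the lowest of its group here. Cdk6 changed by -2.70 (SE 0.10) and 3.25 (SE 0.23), and Cdk2, the partner of cyclins E and A, by -4.45 (SE 0.18) and 4.85 (SE 0.39). Cdk7, which activates the other kinases and also serves general transcription, was not called in either comparison. Cyclin E, the partner of Cdk2 at the start of S phase, was not called in either comparison. Ccne1 was at 11.9 ± 1.13 CPM in SB2, 14.7 ± 1.69 in SB4, 16.2 ± 0.573 in BS2 and 9.12 ± 1.59 in BS6. Its log2 fold changes were 0.31 (SE 0.13) and -0.78 (SE 0.17), under the threshold for a call. Ccne2 was at 16.7 ± 1.99, 11.2 ± 0.651, 10.4 ± 0.945 and 8.85 ± 1.49 CPM in the same order.

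Among the E2F factors, both activators and repressors held called and uncalled genes. Of the activators, E2f2 (chr4:136172394-136196057, plus strand) was at 14.6, 16.7 and 13.7 CPM in SB2 and 0.497, 1.41 and 1.23 CPM in SB4, and at 1.30, 0.897 and 1.23 CPM in BS2 and 40.9, 122 and 48.8 CPM in BS6. All libraries of BS6 exceeded those of SB2, and replicate 2 was the highest. In BS6 against BS2 the log2 fold change of E2f2 was 5.98 (SE 0.57) in BS6 against BS2, or 5.32 without BS6 replicate 2. E2f1 fell by 1.29 (SE 0.12) from SB2 to SB4 and was not called in BS6 against BS2 (0.85, SE 0.22). E2f3 was not called in either comparison. Among the repressors, E2f7 and E2f8, which act without a DP partner and are themselves made in S phase, passed the filter through the bone-rich libraries alone. E2f8 was at 13.9 ± 1.25 CPM in SB2 and 17.1, 43.5 and 15.0 in the libraries of BS6, against 0.357 ± 0.0869 in SB4 and 0.301 ± 0.128 in BS2. E2f4, which binds with the pocket proteins in resting cells, was called in BS6 against BS2 alone (1.19, SE 0.12), and E2f5 and E2f6 were not called.

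Of the 10 genes of origin licensing and firing, 9 were lower in SB4 and higher in BS6. Over all genes, 28.6% were lower in SB4 and 29% higher in BS6. The 9 were Mcm2 to Mcm7, Mcm10, Cdc6 and Cdc45. Cdc6 in both comparisons and Mcm10 in BS6 against BS2 passed the filter through the bone-rich group alone and had to differ. Mcm6 moved the most of this group, with 87.7, 76.5 and 78.1 CPM in SB2, 0.780, 1.25 and 2.06 CPM in SB4, 2.18, 1.28 and 1.16 CPM in BS2 and 41.1, 60.5 and 37.7 CPM in BS6. The bone-rich libraries lay wholly above the brain-rich, and Mcm6 changed by -5.84 (SE 0.20) and 4.93 (SE 0.33). The members of the ring were not equally low in the brain-rich libraries. Mcm4, the least changed of the 9, fell by 2.39 from SB2 to SB4, and Mcm2 kept 5.73 ± 0.416 CPM and Mcm5 7.30 ± 0.440 CPM in SB4, from 60.5 ± 7.46 and 79.6 ± 5.18 CPM in SB2. Cdc6, the loader of the ring, was at 17.6 ± 2.70, 0.601 ± 0.177, 0.505 ± 0.130 and 12.1 ± 1.40 CPM in SB2, SB4, BS2 and BS6. Cdc45 was at 20.0 ± 1.23, 1.33 ± 0.182 and 1.39 ± 0.360 CPM in SB2, SB4 and BS2 and at 10.2, 24.7 and 8.46 CPM in the libraries of BS6. In E2f8 and Cdc45 alike, BS6 replicate 2 was far above the other libraries of its group. Mcm10 was at 16.5 ± 1.18, 0.977 ± 0.286, 1.00 ± 0.520 and 14.2 ± 5.67 CPM. Cdc7, the kinase that fires the loaded origin, was the member of the group that was not called, with 0.36 and -0.44. Mcm8 and Mcm9, which serve DNA repair and are not part of the ring, were not called either.

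Several genes of mitosis were near 0 in the brain-rich libraries. Cdk1 lies on the minus strand of chromosome 10 (chr10:69335146-69352938 of mm10, GENCODE M21). It was at 49.8, 44.9 and 49.1 CPM in SB2 and at 0.0709, 0 and 0.167 CPM in SB4, where 0 to 3 reads were counted per library. Summed over the libraries, its count ratio of SB2 to SB4 was 606 (95% interval 236 to 2227, counting error only). In BS2 it was at 0, 0.384 and 0.145 CPM and in BS6 at 25.7, 44.5 and 21.1 CPM. Ccnb1, its cyclin, was at 42.3, 39.0 and 48.2 CPM in SB2, 0.0709, 0.381 and 0.279 CPM in SB4, 0.236, 0.320 and 0 CPM in BS2 and 19.7, 32.7 and 16.5 CPM in BS6. Ccnb2 was at 38.4 ± 3.29, 0.977 ± 0.171, 0.548 ± 0.274 and 35.5 ± 19.9 CPM. Ccna2, the cyclin of S phase and G2, kept more, with 2.82 ± 0.311 CPM in SB4 and 2.44 ± 0.974 in BS2 against 63.9 ± 4.29 in SB2 and 38.1 ± 11.3 in BS6. In none of these genes did the bone-rich and brain-rich groups of a comparison overlap. Over all genes tested, 85.5% did not overlap in SB4 against SB2 and 80.8% in BS6 against BS2. Cdk1 and Ccnb1 in both comparisons and Ccnb2 in BS6 against BS2 passed the filter through the bone-rich group alone and had to differ.

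Top2a encodes the topoisomerase that untangles the copied chromosomes, and Mki67 the Ki-67 protein that coats them in mitosis. Top2a (chr11:98992943-99024189, minus strand) was at 184, 151 and 171 CPM in SB2, 0.0709, 0.435 and 1.17 CPM in SB4, 0.590, 0.961 and 0.944 CPM in BS2 and 87.9, 152 and 83.8 CPM in BS6. Mki67 (chr7:135689784-135716361, minus strand) was at 168, 159 and 176 CPM in SB2, 0.851, 0.544 and 1.39 CPM in SB4, 1.00, 0.384 and 1.09 CPM in BS2 and 162, 311 and 140.0 CPM in BS6. In both genes the brain-rich libraries were at 1.39 CPM or less and the bone-rich libraries at 83.8 CPM or more. Both genes passed the filter through the bone-rich libraries alone.

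**Figure D4:**
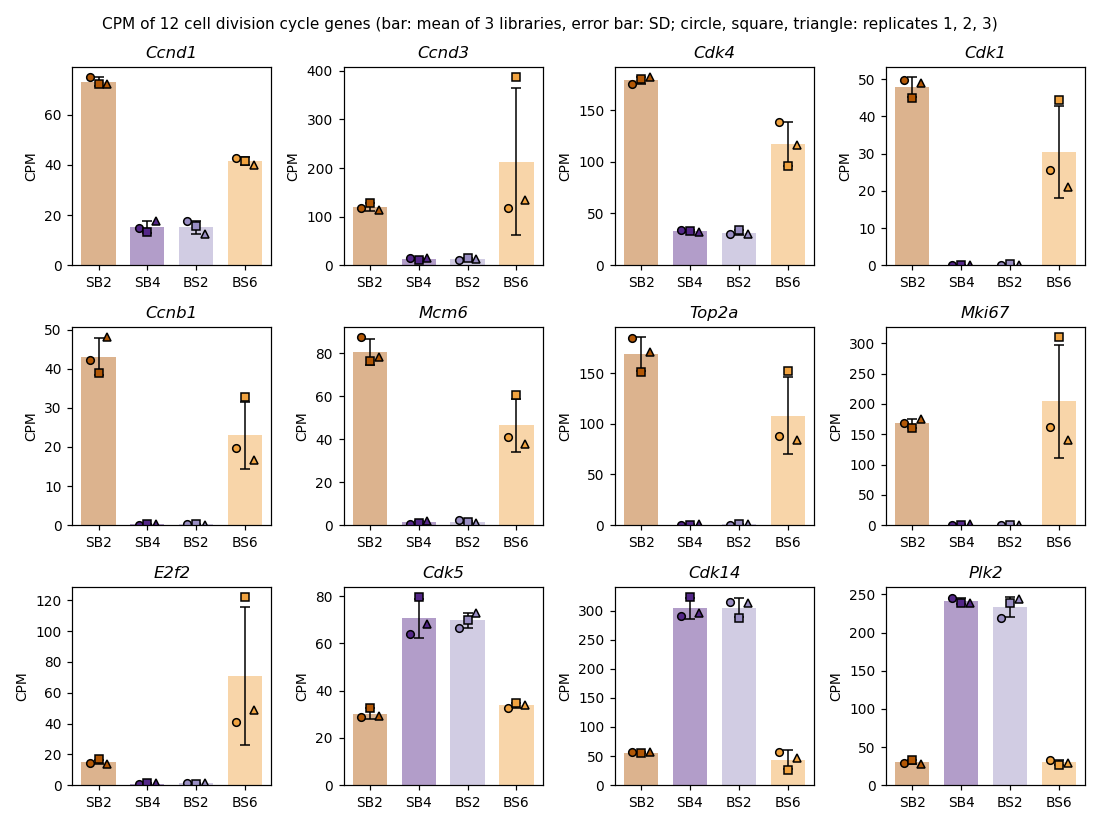
CPM of 12 cell division cycle genes by labelled group, with bars for the mean of 3 libraries, error bars for the SD and points for replicates 1 (circle), 2 (square) and 3 (triangle). Ccnd1 to E2f2 are high in the bone-rich groups SB2 and BS6, whereas Cdk5, Cdk14 and Plk2 are high in the brain-rich groups SB4 and BS2.

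Of the 4 measured Aurora and Bub kinases, Aurkb, Bub1 and Bub1b passed the filter through the bone-rich libraries alone. Aurka, which matures the spindle poles, was called in both comparisons and was at 22.3 ± 0.532 CPM in SB2, 1.67 ± 0.213 in SB4, 1.20 ± 0.139 in BS2 and 17.2 ± 9.92 in BS6. Aurkb, the kinase of the chromosomal passenger complex, was at 30.2, 28.2 and 29.9 CPM in SB2 and 0.213, 0.217 and 0.446 CPM in SB4. In BS2 no library of Aurkb exceeded 3 counts, and in BS6 it was at 18.5, 40.0 and 17.9 CPM. Bub1b, which encodes BubR1 of the spindle checkpoint, was at 36.2, 31.2 and 36.3 CPM in SB2, 0.142, 0.163 and 0.0557 CPM in SB4, 0.236, 0.0640 and 0.145 CPM in BS2 and 20.2, 36.6 and 22.0 CPM in BS6. Of the regulators of Cdk1 and anaphase, Cdc25c, which removes the inhibitory phosphates from Cdk1, was at 10.7 ± 0.522 CPM in SB2 and 5.11 ± 1.63 in BS6, and was within 0 to 2 counts per library in SB4 and in BS2. Cdc25b changed by -0.47 (SE 0.08) and 0.90 (SE 0.11), under the threshold. Cdc20 was at 51.0, 55.4 and 57.3 CPM in SB2, 0.993, 1.63 and 1.06 CPM in SB4, 1.24, 0.897 and 1.09 CPM in BS2 and 28.4, 64.7 and 25.2 CPM in BS6. Of the subunits of the complex that it activates, Cdc16 was called in SB4 against SB2 (-1.22), and in BS6 against BS2 its log2 fold change was 0.83 with all libraries and 1.07, past the threshold, without BS6 replicate 2. Cdc26 was at -0.84 and 0.55 in the same order, Cdc23 at -0.25 and -0.0064, and Cdc27 at 0.44 and -0.79, all under the threshold for a call.

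Of the 19 centromere and kinetochore genes, 16 were lower in SB4 and 13 were higher in BS6, against 28.6% and 29% of all genes. Among them Cenpf, Cenph, Cenpi, Cenpk and Cenpp passed the filter through the bone-rich libraries alone and had to differ. Without BS6 replicate 2 the call of Cenpu in BS6 was lost. Cenpf, a kinetochore protein made in G2, was at 41.0 ± 4.38 CPM in SB2, 0.457 ± 0.23 in SB4, 0.678 ± 0.136 in BS2 and 23.2 ± 6.00 in BS6. Cenpa, the histone variant that marks the centromere, was at 58.1 ± 7.18, 4.06 ± 0.855, 4.03 ± 0.161 and 44.4 ± 14.8 CPM, and Cenpe, a motor of the kinetochore, at 29.8 ± 3.75, 1.89 ± 0.583, 1.93 ± 0.836 and 25.4 ± 11.2 CPM. Cenpt, Cenpv and Cenpw were not called in SB4 against SB2, and Cenpb, Cenpq, Cenps, Cenpt and Cenpw were not in BS6 against BS2. The call of Cenps in SB4 was lost without SB4 replicate 2 (-0.93) or 3 (-0.89). Cenpb, which binds satellite DNA at all times of the cycle, was at 306 ± 21.1 CPM in SB2 and kept 125 ± 3.58 in SB4 and 131 ± 10.4 in BS2. Cenpv was the member of this group that was lower in BS6 (-1.02, SE 0.18), and this call was lost with upper-quartile scaling (-0.94), without BS2 replicate 2 (-0.97) and without BS6 replicate 2 (-0.87). Cenpj, which despite its name serves the centriole, was called in both, with -2.26 and 1.94.

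The Polo-like kinases divided into opposite directions. Plk1, the kinase of mitotic entry, was at 25.1 ± 1.96 CPM in SB2, 1.72 ± 0.362 in SB4, 1.13 ± 0.544 in BS2 and 12.9, 42.1 and 15.8 in the libraries of BS6, where replicate 2 was far above the others. Plk4, which copies the centriole, was called in the same directions (-2.04 and 1.26), the latter not without BS6 replicate 2 (0.94). Plk2 lies on the plus strand of chromosome 13 (chr13:110395046-110400844) and is known in neurons as a kinase induced by activity that weakens synapses. It was at 29.4, 33.0 and 27.6 CPM in SB2 and at 246, 239 and 239 CPM in SB4. It was at 219, 238 and 244 CPM in BS2 and at 33.5, 26.3 and 29.5 CPM in BS6. The brain-rich libraries exceeded all bone-rich libraries, 8.07-fold in SB4 over SB2 and 7.64-fold in BS2 over BS6 (adjusted p = 2.05e-11 and 6.72e-06 by the Benjamini-Hochberg adjusted quasi-likelihood test of edgeR). Plk5, a family member of nerve tissue that lacks an active kinase, was at 0.878 ± 0.422 CPM in SB2, 17.1 ± 3.43 in SB4, 16.0 ± 4.79 in BS2 and 1.37, 4.11 and 1.85 in the libraries of BS6. It fell by 2.66 (SE 0.45) from BS2 to BS6. Plk3 was not called in either comparison.

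Most kinases higher in the brain-rich libraries are known for work outside the cycle engine. Cdk5, the neuronal kinase that is switched on by p35, was at 28.7, 32.8 and 29.1 CPM in SB2 and 63.8, 79.7 and 68.2 CPM in SB4. It was at 66.5, 70.0 and 72.8 CPM in BS2 and 32.8, 34.7 and 33.7 CPM in BS6, so that its groups did not overlap either. Its change of -1.01 (SE 0.09) in BS6 against BS2 stood just past the threshold, and upper-quartile scaling (-0.94) took it back, as did leaving out BS2 replicate 3 (-0.99) or BS6 replicate 1 (-0.98). Cdk14, a kinase of the PFTAIRE family that binds cyclin Y, was at 56.1 ± 1.36 CPM in SB2, 304 ± 17.4 in SB4, 305 ± 16.0 in BS2 and 43.5 ± 16.3 in BS6. Cdk17, of the related PCTAIRE family, was 8.23-fold higher in SB4 than in SB2 and 8.07-fold higher in BS2 than in BS6. Its sister Cdk18 was at 8.93 ± 0.806, 20.0 ± 2.04, 24.0 ± 1.08 and 8.96 ± 2.82 CPM in SB2, SB4, BS2 and BS6, and Cdk19, a kinase of the Mediator complex, was called in the same directions (1.70 and -1.26). Cdk16, Cdk10 and Cdk20 were not called, although Cdk16 was past the threshold without BS2 replicate 1 (-1.03), BS2 replicate 3 or BS6 replicate 1 (-1.02). Cdk15 was at 0.284 to 5.35 CPM over the 12 libraries. It passed the filter through the bone-rich libraries alone, BS6 replicate 2 overlapped BS2, and its call in BS6 against BS2 was lost on leaving out any 1 of 5 of the 6 libraries, BS6 replicate 2 excepted. The other kinases of transcription, Cdk8, Cdk9, Cdk12 and Cdk13, were not called in either comparison. Ccna1, the cyclin A of the male germ line, was at 0 to 1.17 CPM over the 12 libraries. Its call as higher in SB4 and lower in BS6 rests on few reads, and it passed the filter through the brain-rich group alone and had to differ.

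Of the Cdc genes whose work lies outside the cycle engine, none of the 7 tested (Cdc34, Cdc37, Cdc40, Cdc42, Cdc5l, Cdc73 and Cdc123) was called in either comparison. In the test of the difference between the changes, Cdc34, Cdc37 and Cdc42 were called above 0 and Cdc40 and Cdc73 below 0. Their log2 fold changes were -0.64 to 0.87 in SB4 against SB2 and -0.78 to 0.59 in BS6 against BS2. Cdc42 itself was at 469.5 ± 43.2, 301 ± 13.9, 314 ± 8.43 and 405 ± 66.3 CPM in SB2, SB4, BS2 and BS6. Cdc20b and Cdc34b were at 0 to 0.0666 CPM and 0 to 0.256 CPM over the 12 libraries and were not tested, and reads of Cdc34b could be shared with its near copy Cdc34. Cdc14a, a phosphatase that opposes Cdk1, was called in both (-1.78 and 2.92), and Cdc14b was in neither.

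Since most called members, though not all, were lower in the brain-rich libraries, the promoters of the genes were read for the sequence elements of cell cycle genes. RefSeq promoters (GRCm38.p6, 250 bases before to 50 after the start) were matched for 83 of the 97 genes, which have 95 promoters. The elements searched on both strands were the cell cycle homology region CHR (TTTGAA or TTCAAA), the E2F site (TTTNNCGC or GCGNNAAA), the CCAAT box (CCAAT or ATTGG) and the TATA box (TATAAA or TTTATA). A match is a description of the letters and not of binding. The sequences below are 150 bases before the start in the direction of the gene, 5′ to 3′, with matches in capitals. Cdk1, Ccnb2, Top2a and Cdc20 are shown for the mitotic genes, Mcm6 for DNA replication and Plk2 for the genes that were higher in the brain-rich libraries.
Cdk1 (chr10:69352913-69353062, minus strand): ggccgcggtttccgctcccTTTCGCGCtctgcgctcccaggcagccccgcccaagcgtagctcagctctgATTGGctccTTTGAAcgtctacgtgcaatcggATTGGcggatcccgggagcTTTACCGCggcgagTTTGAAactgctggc
Ccnb2 (chr9:70421555-70421704, minus strand): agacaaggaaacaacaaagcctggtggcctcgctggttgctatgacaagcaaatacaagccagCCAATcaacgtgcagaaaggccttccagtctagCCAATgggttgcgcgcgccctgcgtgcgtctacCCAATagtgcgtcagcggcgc
Top2a (chr11:99024190-99024339, minus strand): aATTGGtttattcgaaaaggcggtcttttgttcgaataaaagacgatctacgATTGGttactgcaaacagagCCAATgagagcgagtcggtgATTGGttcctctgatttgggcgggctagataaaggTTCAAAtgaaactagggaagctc
Cdc20 (chr4:118437344-118437493, minus strand): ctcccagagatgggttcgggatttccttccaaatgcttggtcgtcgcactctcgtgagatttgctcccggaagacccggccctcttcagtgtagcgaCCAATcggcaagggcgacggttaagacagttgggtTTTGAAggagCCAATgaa
Mcm6 (chr1:128359706-128359855, minus strand): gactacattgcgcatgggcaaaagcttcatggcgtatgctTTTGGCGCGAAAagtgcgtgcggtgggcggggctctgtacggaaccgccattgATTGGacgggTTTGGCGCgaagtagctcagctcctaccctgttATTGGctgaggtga
Plk2 (chr13:110394894-110395043, plus strand): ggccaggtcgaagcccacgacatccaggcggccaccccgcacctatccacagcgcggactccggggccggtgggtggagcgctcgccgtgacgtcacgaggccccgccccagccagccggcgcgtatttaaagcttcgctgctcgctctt

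The window of Cdk1 holds 2 CHR, 2 E2F and 2 CCAAT matches, and the nearest CHR begins at -15, counted from the start. A CHR begins at -23 in Top2a and at -18 in Cdc20, with 4 and 2 CCAAT boxes in the windows. Ccnb2 has 3 CCAAT boxes, which begin at -87, -54 and -21, and its CHR matches, at -167 and 4, lie outside the printed window. Mcm6 has 3 E2F matches (at -110, -106 and -47, of which the nearest pair overlap) and 2 CCAAT boxes. Plk2 has no match to the 4 elements in this window. Over whole promoters, E2F matches were found in 18.9% of the 95 promoters of the members and in 5.17% of all 32851 promoters. In the 56 promoters of members lower in SB4 the share was 28.6%. This set, used again below, includes members that passed the filter in SB2 alone, such as Cdk1, E2f2, E2f7 and Cenpk, which hold E2F matches. The filter fixed the direction of such members, so the shares of this set are descriptions only. CHR matches were found in 25.3% of the members' promoters, in 32.1% of those of members lower in SB4 and in 17.9% of all promoters. CCAAT boxes were found in 58.9%, 73.2% and 37.4%, and TATA boxes in 5.26%, 5.36% and 13.6% of the same sets. For CHR the 95% interval of the members' share, 17.6% to 34.8%, held the share of all promoters. Of the 5 promoters of members higher in SB4, 3 held a CCAAT box and 0 held a CHR, E2F or TATA match. The CCAAT boxes were in Cdk18, Ccna1 and Plk5, and Ccna1 and Plk5 had passed the filter in SB4 alone.

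BS6 was then compared with SB2, the bone-rich group of the other label. By their labels these groups differ in sampled tissue, day and lit tissue, and if the labels of SB2 and BS2 were exchanged, they would differ in day alone. Which of these holds was not tested. Few cell cycle genes were called here, and the median log2 fold change was -0.22 over the members and 0.02 over all genes. Of 94 members tested, E2f2 was higher in BS6, Cenpm, Cenpp and Cenpi were lower, and 90 were not called by the same test. Over all 16329 genes, 1.11% were higher and 0.741% lower. E2f2 was higher by 2.26 (SE 0.44, adjusted p = 0.044 by the Benjamini-Hochberg adjusted quasi-likelihood test of edgeR). Cenpm (chr15:82233779-82244748, minus strand) was at 13.0, 13.2 and 13.2 CPM in SB2 and 4.50, 4.89 and 4.71 CPM in BS6, and fell by 1.46 (SE 0.14, adjusted p = 0.0194 by the Benjamini-Hochberg adjusted quasi-likelihood test of edgeR). Cenpi was at 16.8, 13.2 and 14.2 CPM and 6.52, 7.13 and 7.06 CPM, and fell by 1.08 (SE 0.15). Cenpp was at 5.64, 5.33 and 3.97 CPM and 2.02, 2.48 and 1.91 CPM, and fell by 1.20 (SE 0.25). The call of E2f2 was lost with total counts (adjusted p = 0.0503 by edgeR) and with no filter (adjusted p = 0.0526 by edgeR), and with the replicate block all 4 calls were lost (adjusted p = 0.0995 to 0.113 by edgeR). The Cenp genes are proteins of the inner kinetochore, and none of the 4 genes overlapped between the groups. The libraries did not overlap in 46 of the 94 members and in 38.1% of all genes.

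The comparison of the bone-rich groups rests on which libraries enter. BS6 replicate 2 was the highest of its group in 64 of the 94 members, and in 46 of the 54 members that were lower in SB4 than in SB2. Its level was 1.36 times the mean of replicates 1 and 3 in the median of the 94 and 1.70 times in that of the 54. These values were not computed over all genes, so whether they are particular to the members was not tested. Without BS6 replicate 2, 19 members were lower in BS6 and 1 was higher, against 1.63% and 2.39% of all 16608 genes tested. E2f2 stayed higher, by 1.59. The 19 were Cenpm, Bub1, Cdc25c, Cenpp, Ccnb1, Cenpq, Plk4, Mcm5, Cenpi, Cenpn, Cdc45, Cenpw, Ccne2, Cenpf, Mcm8, Cdk1, Mcm6, Cdc20 and Ccna2. Cdk1 then fell by 1.03, Ccnb1 by 1.24 and Mcm5 by 1.13 on the log2 scale, each a little past the threshold. Without it 73 of the 94 members were below 0, with a median of -0.35 over the members and 0.01 over all genes. Leaving out any of the other 5 libraries left 0 members called, and few genes in all. These were 34 of 16701 genes tested without BS6 replicate 1, 32 of 16716 without BS6 replicate 3 and 0 of 16711 to 16750 without an SB2 library. Neutrophil lineage markers moved with BS6 replicate 2 as given above, and Prtn3, the 1 measured gene of the list of early neutrophil precursors, was at 1000.2 CPM there against 40.8 and 106 CPM in the other libraries of BS6 and 41.8 to 99.6 CPM in SB2. Erythroid markers (8 measured) summed to 7762 to 12760 CPM in BS6 and 1299 to 4613 CPM in SB2. The part of these cells in the levels of the cell cycle genes was not tested.

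**Figure D5:**
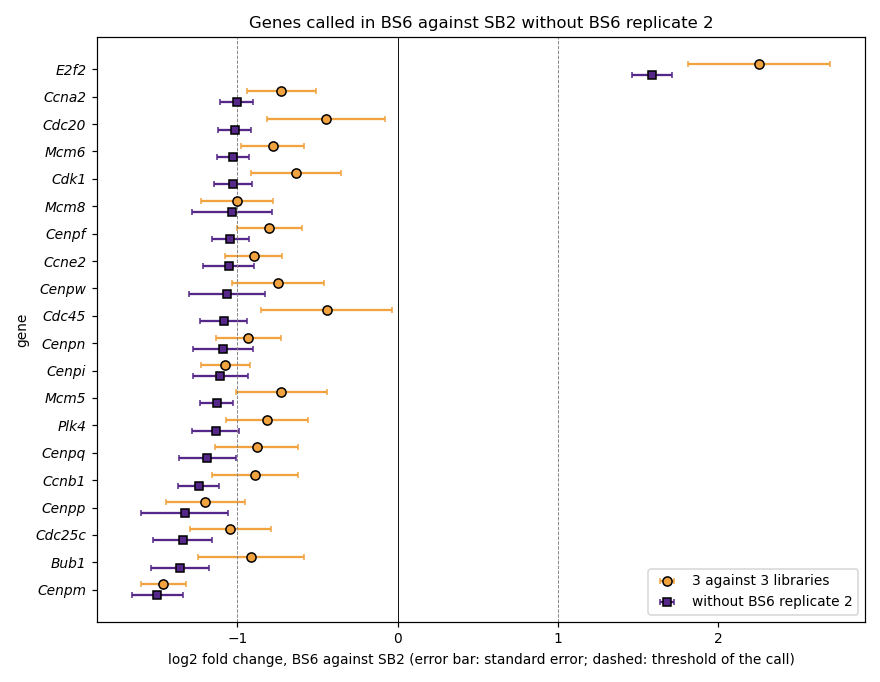
Log2 fold change of BS6 against SB2 for the 20 cell division cycle genes called without BS6 replicate 2, with all 6 libraries (circles) and without that library (squares), and standard errors as bars. E2f2 is above 1 in both. Without the library 19 genes lie past -1, whereas with it Cenpm, Cenpp and Cenpi were called and Cdc25c and Mcm8 lay past -1 without a call.

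Between BS2 and SB4, the brain-rich groups, no member was called. Of 84 members tested 0 were called, 2 had an unadjusted p under 0.05 in edgeR's test and 3 in DESeq2, which also called 0. Over all 16278 genes 0.0614% were higher and 0.086% lower, and 1933 had an unadjusted p under 0.05 in edgeR's test. The libraries did not overlap between the groups in 7 of the 84 members and in 16.5% of all genes tested. The pair of members at an unadjusted p under 0.05 in edgeR's test were Cdk18 (0.29, SE 0.10) and Cdk19 (0.17, SE 0.07), with adjusted p = 0.21 and 0.297 by the Benjamini-Hochberg adjusted quasi-likelihood test of edgeR. Cdk1, Ccnb1, Cdc25c, Aurkb, Bub1 and Bub1b were among the 13 members that did not pass the filter here. With no filter 97 members were tested and in the fit over 12 libraries 95, and 0 were called in either. Plk2 was 241 ± 4.18 CPM in SB4 and 234 ± 13.2 CPM in BS2, and Cdk4 32.9 ± 0.933 and 31.6 ± 2.15 CPM.

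Genes that work with the members were examined by lists of the same pathways. Among them Birc5, Ect2, Gins1, Gins2, Kif2c, Knl1, Ncapg, Ndc80, Prc1, Pttg1, Spc25, Ttk and Ube2c in both comparisons, Cdkn2a in SB4 against SB2 and Chek1 in BS6 against BS2 passed the filter through the bone-rich group alone, as did Cdkn2b in both, so the counts that follow hold genes that had to differ. They are to be read against the 28.6% lower and 27.8% higher in SB4 and the 29% higher and 26.5% lower in BS6 over all genes. Of the 7 inhibitors of the cyclin-dependent kinases, 5 were lower in SB4 and 4 of 6 tested were higher in BS6. Cdkn2c (p18), an inhibitor of Cdk4 and Cdk6, was at 51.6 ± 4.45 CPM in SB2, 1.53 ± 0.159 in SB4, 1.95 ± 0.365 in BS2 and 34.9 ± 5.19 in BS6. Cdkn1a (p21) changed by -1.54 (SE 0.24) and 1.64 (SE 0.19), and Cdkn1b (p27), a brake of resting cells, by -0.57 and 0.92, under the threshold. Of 11 pocket proteins and partners in the DREAM and MMB complexes, 4 were lower and 2 higher in SB4, and 4 were higher and 1 lower in BS6. Rb1, the retinoblastoma protein, was at 30.7 ± 3.67, 34.5 ± 1.18, 37.6 ± 3.80 and 35.3 ± 4.15 CPM in SB2, SB4, BS2 and BS6 and was not called. Tfdp1, the main DP partner of the E2Fs, was called in BS6 against BS2 alone (1.11, SE 0.39). Tfdp2, the second DP partner, was higher in SB4 than in SB2 (1.04, SE 0.08) and was not called in BS6 against BS2 (-0.05, SE 0.13).

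Of 12 genes of the origin recognition complex, Cdt1, geminin and GINS, 6 were lower and 1 higher in SB4, and 6 were higher and 1 lower in BS6. The 7 genes were the same in both. Orc4 was the gene that went against the Mcm ring (1.18 and -1.39), and Orc2, Orc3 and Orc6 were not called. All 13 tested genes of the replication fork and of nucleotide supply were lower in SB4, and 12 were higher in BS6. Pcna, the sliding clamp, was at 131 ± 4.24, 34.8 ± 0.817, 37.5 ± 2.98 and 92.7 ± 18.5 CPM, and Rrm2, the subunit of ribonucleotide reductase made in S phase, at 64.4 ± 5.97, 1.48 ± 0.370, 1.54 ± 0.348 and 49.6 ± 25.8 CPM. Of 14 genes of the spindle checkpoint and anaphase, 11 were called in both. Ube2c, the ubiquitin carrier of the anaphase-promoting complex, was at 43.6 ± 2.91 CPM in SB2 and 31.7, 97.7 and 35.8 in the libraries of BS6, against 0.203 ± 0.264 in SB4 and 0.0877 ± 0.0772 in BS2. Fzr1, which activates the same complex in G1 and in resting cells, was at 54.6 ± 2.72, 57.4 ± 2.58, 56.6 ± 6.12 and 55.9 ± 4.49 CPM and was not called.

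Of 13 genes of the chromosomal passenger complex, spindle and cytokinesis, 12 were lower in SB4 and 11 higher in BS6. Cit, the citron kinase of cytokinesis, which neurons also express, was the exception, 7.02-fold higher in SB4 than in SB2 and 4.61-fold higher in BS2 than in BS6. Anln, the anillin of the contractile ring, was lower in SB4 (-1.14, SE 0.13) and was not called in BS6 against BS2 (0.23, SE 0.32). Of 10 genes of condensin and cohesin, the 5 condensin genes were called in both, and the 5 cohesin genes, among them Rad21, Smc1a, Smc3 and Stag2, in neither. Of 7 measured checkpoint genes, 4 were lower in SB4 and higher in BS6, among them Trp53 (-2.06 and 1.81). Atm and Atr were not called. Wee1, the kinase that holds Cdk1 inactive, was lower in BS6 than in BS2 (-1.04, SE 0.15) and was not called in SB4 against SB2 (0.63, SE 0.08).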

How the data were processed

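The 12 libraries, 3 in each of 4 groups given by the labels, were prepared from poly(A) mRNA and sequenced as paired ends. The deposited table holds whole-number read counts per gene that the authors made by trimming with fastp and aligning to mm10 with HISAT2 2.1.0 (submitters' processing notes). The counting program, its annotation and its use of strand are not given in the sources used here. The study's methods name ComBat_seq for joining earlier data, and whether it touched these counts is not given. All 22317 rows name a gene.

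Library totals were 14126082 to 18972654 counts. CPM were computed with TMM factors (edgeR 4.0.16, limma 3.58.1, R 4.3.3), so a CPM is relative to the scaled total of its library, and an SD over 3 libraries is the spread of the group. Genes were kept by filterByExpr (minimum count 10) and tested in each pair of groups with the quasi-likelihood test of edgeR, with Benjamini-Hochberg adjustment over all genes kept. The test was first run on simulated counts. Calls needed a log2 fold change past 1 in either direction (prior count 0.125) and an adjusted p under 0.05. The difference of both changes used 1 fit over 12 libraries and the same call rule. The floor is 3 counts. DESeq2 1.42.0, other scalings, filters, fits and libraries left out in turn were tried. Gene coordinates and exon lengths are from GENCODE M21 (mm10) and promoters from RefSeq (GRCm38.p6).

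The members and gene lists were chosen with earlier results of these data known. Members with full values were 38 fixed by name, plus the 3 with the highest and the 3 with the lowest log2 fold change among the called in each comparison. Of other pathway lists, the 4 genes with the highest mean CPM could be named. Mcm4, Mcm6, Cdc14a, Cdc16, Cdc23, Cdc26, Cdc27, Cdk15, Cdk16, Cdk19, Cenpb, Cenpj, Cenps, Cenpu, Cenpv, E2f4 and Plk4 are given values outside that rule and were chosen after their values were seen.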

Additional observations from a re-analysis of the deposited data

Results flagged for a closer look

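The change between the brain-labelled groups and the change between the skull-labelled groups were compared by a test of the difference itself (BS6 against BS2 minus SB4 against SB2, 1 fit over 12 libraries, the Benjamini-Hochberg adjusted quasi-likelihood test of edgeR). The difference was above 0 in 62 members and below 0 in 15, against 37.8% and 35.8% of all genes tested. Of these, 20 and 2 had passed the filter on low counts through 1 group alone in either comparison and had to differ. Of the 73 others 55 (75.3%) were called in either direction, against 68.6% of the genes that passed in every group. This pooled share was near that of all genes, but it does not show direction. Of the 55, 42 were above 0 and 13 below 0, a split not computed for the genes that passed in every group. Among the 73 members the difference was highest in Mcm6 (10.79 on the log2 scale), Cdc20 (10.69) and Cdk2 (9.33), and lowest in Cdk17 (-6.04), Plk2 (-5.94) and Cdk14 (-5.21). SB2 and BS6 held the osteoblast markers and SB4 and BS2 the neuronal markers, and the part of tissue content in these differences cannot be told apart from that of day.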

How the results depend on the processing

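In SB4 against SB2 and in BS6 against BS2 no called member changed direction under any setting, and members near 0 were not followed in this way. The counts stayed within 1.5 times the values reported, except that the adjusted p alone gave 19 higher in SB4 and 20 lower in BS6 than in BS2, and that at least 10 counts in every library left 32 higher in BS6. With a library left out they were 8 to 9 higher and 53 to 54 lower in SB4, and 48 to 49 higher and 8 to 10 lower in BS6. BS6 against SB2 depended on the setting. The count lower in BS6 was 7 by the adjusted p alone, 5 with DESeq2 and 5 in the fit over 12 libraries, and 0 to 19 with a library left out. The count higher in BS6 was 2 with DESeq2, 3 in the fit over 12 libraries, 0 with total counts, 0 with no filter and 0 to 1 with a library left out. The replicate block left 0 higher and 0 lower in BS6 against SB2 and did not move the counts of the other comparisons. Same-numbered libraries did not deviate together (correlations -0.09 to 0.06), and those of differently numbered libraries were -0.13 to 0.17. Whether same-numbered libraries share more than a number cannot be told from these values. Changes of BS6 against SB2 near 0 turned sign. Plk2 was -0.0052 with upper-quartile factors, -0.060 with total counts and -0.010 with no filter, and Cdk18 was -0.054 with total counts and -0.021 with the replicate block. With a library left out, the log2 fold changes of BS6 against SB2 that turned sign ranged over Ccnb2 -0.67 to 0.14, Cdk18 -0.19 to 0.24, Aurkb -0.69 to 0.012, Plk1 -0.80 to 0.23, Plk2 -0.082 to 0.081, Cdk2 -0.028 to 0.57, Mki67 -0.14 to 0.52 and Cenpe -0.63 to 0.031. The causes were not tested. With 150 bases in place of the whole promoter, CHR matches were found in 13.7% and E2F matches in 11.6% of the members' promoters, since the window is shorter. In all promoters the shares in this window were 9.07% and 2.75%. The 95% interval of the members' CHR share, 8.17% to 22.0%, held the share of all promoters. Depth limits the members that are low in the brain-rich libraries, 13 of which did not pass the filter between SB4 and BS2.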
